A study of Arabidopsis thaliana with 7 samples.

Results

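The genes described here are those of Arabidopsis leaves that stood well above every control array 3 h and 6 h after a spray with salicylic acid (SA). At 24 h they were at most slightly above the highest control. They were chosen by measured values: a probe set, the group of short probes that reads 1 transcript on the array, had to be at least 1 log2 unit (2-fold) above the highest of the 3 control arrays in both SA at 3 h and SA at 6 h, and less than 0.3 above that highest control in SA at 24 h. Of 13513 probe sets that name 1 gene, 106 met these conditions, which is 0.784%. Of these, 4 were left out because their symbols start with UGT, CYP or WRKY, and the remaining 102 probe sets, which read 100 loci, are the members. The values at 3, 6 and 24 h and of the controls made the choice and are given as a description. SA at 12 h is the one array that the choice did not use.

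All plants were Arabidopsis thaliana of the ecotype Col-0, aged 3.5 weeks and grown in a 12 h photoperiod. The SA groups were sprayed with 0.5 mM SA in 0.02% Silwet, a surfactant that helps a spray wet the leaf, and were taken after 3, 6, 12 and 24 h. The Silwet groups received 0.02% Silwet alone and were taken after 6 h and 12 h, and the untreated group was taken just before the spray. Each of the 7 groups had 1 array, made from mature leaves pooled from a few plants, and further plants were collected as replicates but not processed, per the labels. No difference below therefore has a replicate check and none was tested. No Silwet array was taken at 3 h or 24 h, so SA, spray and time of day cannot be told apart at 3 h, while SA at 24 h shares its clock time with the untreated leaves.

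Salicylic acid is a phenolic hormone that builds up in leaves attacked by biotrophic pathogens. It is perceived by NPR proteins, which act with TGA transcription factors to switch on defence genes locally and in distant leaves. Leaf cells inactivate SA largely by joining it to glucose or by oxidising it, and genes that answer to SA are known to differ in how fast they respond and how long they stay on.

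The values are log2 expression values after RMA normalization, a scale on which the arrays have nearly equal distributions. Array medians ran from 7.01 to 7.08, and pairs of arrays correlated at 0.898 to 0.974. The excess of the 3′ over the 5′ probe set of GAPDH, which grows as RNA degrades, was 0.57, 0.62, 1.49 and 1.19 in SA at 3, 6, 12 and 24 h, 1.78 and 1.41 in the Silwet arrays and 0.85 in untreated leaves. It was lowest in the arrays that chose the members. The same excess for actin was 1.72, 2.48, 2.44 and 2.30 in SA, 2.39 and 1.84 in Silwet and 1.83 in untreated leaves, and so was highest in SA at 6 h. For ubiquitin it was 1.21, 1.32, 1.55 and 1.05 in SA, 1.54 and 1.54 in Silwet and 1.14 in untreated leaves, where SA at 3 h and 6 h lay in the middle. The part of RNA quality in the results was not tested. Of the listed markers of photosynthetic leaf tissue, 8 of 43 were measured, and their summed level was 15.77 to 16.28 in the SA arrays and 16.16 to 16.46 in the control arrays (log2). Of 8 guard cell markers 1 was measured (FAMA, 6.67 to 8.30 over all arrays), of 6 phloem markers 1 (SWEET11, 11.19 to 12.31), and of the epidermis and root markers none, so the make-up of the leaf samples could be checked only in part. In whole leaves, a change in the number of cells of a type and a change in RNA per cell cannot be told apart.

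The members started from ordinary levels, and most were 1 to 2 log2 units above the highest control early on. Their highest control value had a median of 7.20, where it was 6.97 over all probe sets naming 1 gene. It was below the median of all values, 7.04, for 48 of the 102, a range in which RMA compresses differences. Relative to the highest control, the members' median was 1.84 in SA at 3 h, 1.46 at 6 h, 0.74 at 12 h and −0.06 at 24 h. The smaller of the 3 h and 6 h excesses ran from 1.00 to 3.65 with a median of 1.38, reached 2 in 15 members and 3 in 2, and stayed under 1.5 in 63. The early condition alone was met by 3.00% of all probe sets naming 1 gene. The SD over the 3 control arrays, which differ in spray and time, had a median of 0.31 over members and 0.17 over all probe sets. The highest control was the untreated array for 45 members, Silwet at 6 h for 29 and Silwet at 12 h for 28.

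**Figure D1:**
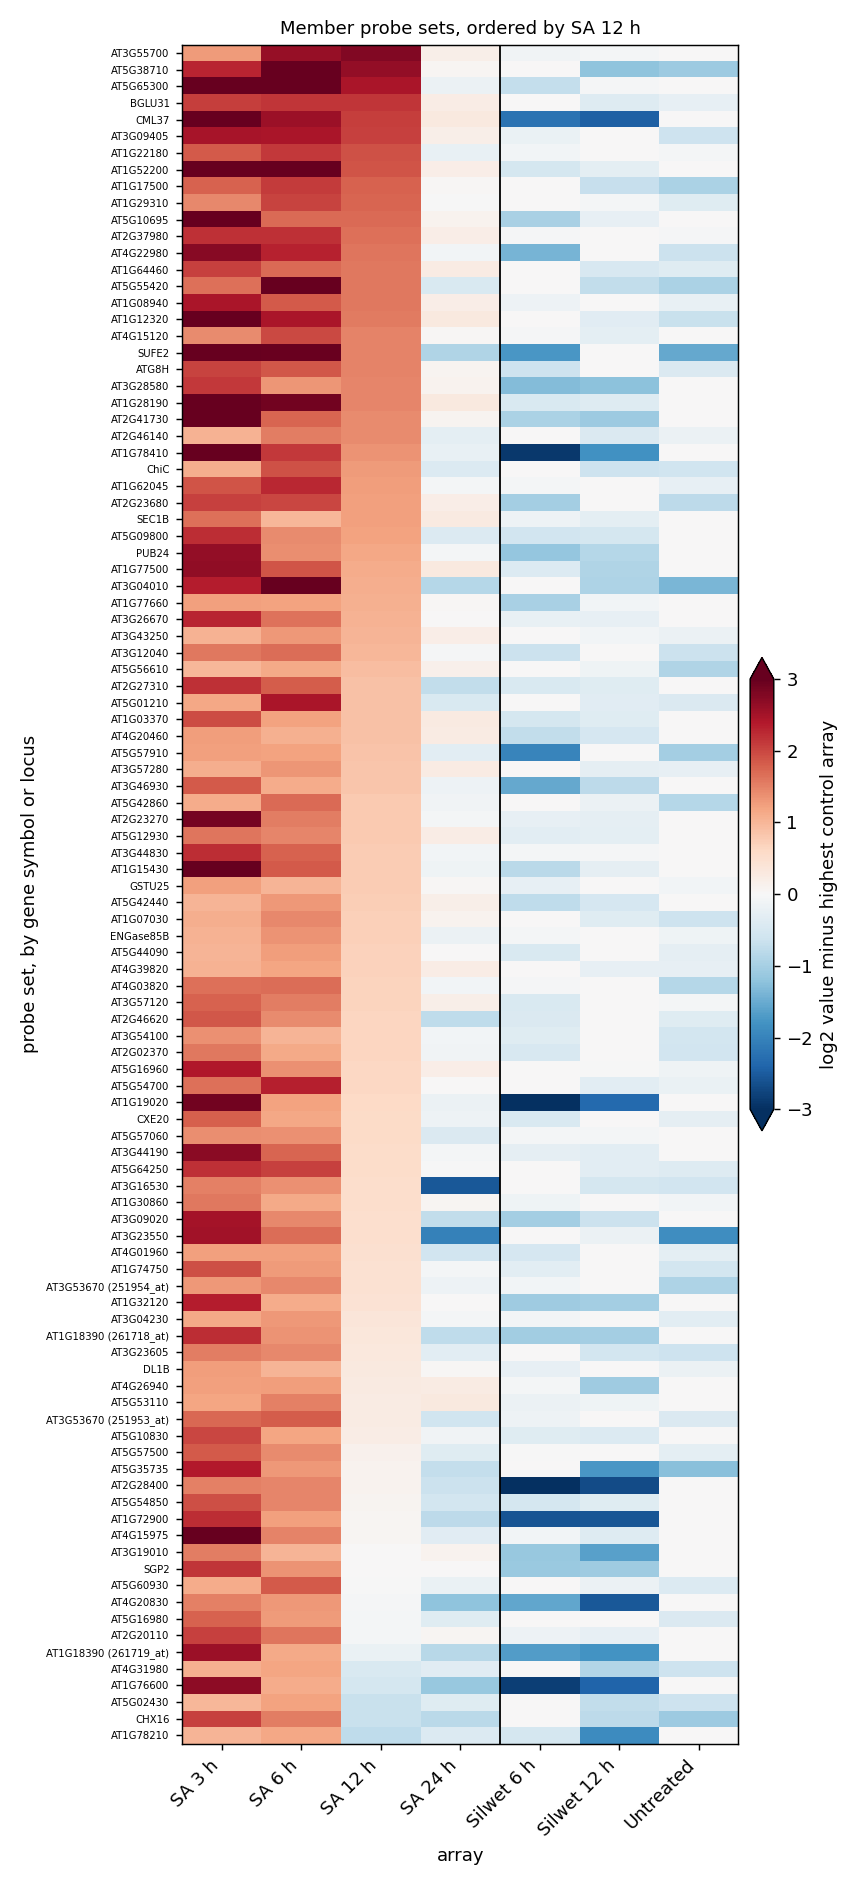
Log2 value minus the highest control array (colour) for each of the 102 member probe sets (rows, ordered by SA at 12 h) in the 7 arrays (columns, SA at 3, 6, 12 and 24 h, then the Silwet arrays at 6 h and 12 h, then untreated). The SA columns at 3 h and 6 h are red throughout and the 24 h column is pale or blue, both by the choice of members, while the 12 h column runs from 2.77 above to 0.76 below the highest control.

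Values below are given for SA at 3, 6, 12 and 24 h, for the Silwet arrays at 6 h and 12 h, and for untreated leaves. By the smaller of the 3 h and 6 h excesses AT1G52200 came first, with 13.05, 12.35, 10.59 and 8.90 in SA, 8.18 and 8.41 in Silwet and 8.71 in untreated leaves. AT5G65300 read 9.84, 9.72, 9.00 and 6.39 in SA, 5.84 and 6.52 in Silwet and 6.56 in untreated leaves. SUFE2, which encodes an activator protein of iron-sulfur cluster assembly, read 11.52, 11.26, 9.79 and 7.39 in SA, 6.55 and 8.29 in Silwet and 6.77 in untreated leaves. For all 3 genes SA at 12 h, which the choice did not use, also lay above every control. It did so in 3450 of all 13513 probe sets naming 1 gene. SUFE2 was higher in Silwet at 12 h than in Silwet at 6 h, and its SA value at 24 h lay between the controls.

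AT1G28190 read 11.22, 10.56, 9.13 and 7.96 in SA, 7.20 and 7.28 in Silwet and 7.66 in untreated leaves. CML37, a calmodulin-like calcium sensor, read 10.13, 8.56, 8.06 and 6.29 in SA, 3.77 and 3.55 in Silwet and 5.99 in untreated leaves. Its Silwet arrays were its lowest, more than 2 log2 units under the untreated array, and the SA array at 24 h was close to untreated. AT3G09405 read 9.42, 9.39, 8.99 and 7.13 in SA, 6.75 and 6.94 in Silwet and 6.33 in untreated leaves. AT1G12320 read 9.37, 8.57, 7.68 and 6.42 in SA, 6.12 and 5.79 in Silwet and 5.46 in untreated leaves. Both had their lowest value in untreated leaves.

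AT3G04010 read 9.58, 10.24, 8.33 and 6.38 in SA, 7.23 and 6.30 in Silwet and 5.87 in untreated leaves. AT4G22980 read 9.85, 9.42, 8.71 and 7.03 in SA, 5.72 and 7.11 in Silwet and 6.47 in untreated leaves. In both genes 1 of the Silwet arrays stood above SA at 24 h, at 6 h for AT3G04010 and at 12 h for AT4G22980. AT5G38710 read 8.78, 9.76, 9.13 and 6.56 in SA, 6.50 and 5.29 in Silwet and 5.41 in untreated leaves. AT2G37980 had nearly equal controls, with 8.35, 8.34, 7.82 and 6.35 in SA, 6.12 and 6.15 in Silwet and 6.12 in untreated leaves. AT1G78410 closed the 12, with 11.21, 9.55, 8.79 and 7.22 in SA, 4.54 and 5.61 in Silwet and 7.43 in untreated leaves. Of these 12 genes all were also 1 log2 unit or more above the highest control at 12 h, least so AT3G04010 and most so AT5G38710 (2.63). Over all probe sets naming 1 gene 3.34% were.

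**Figure D2:**
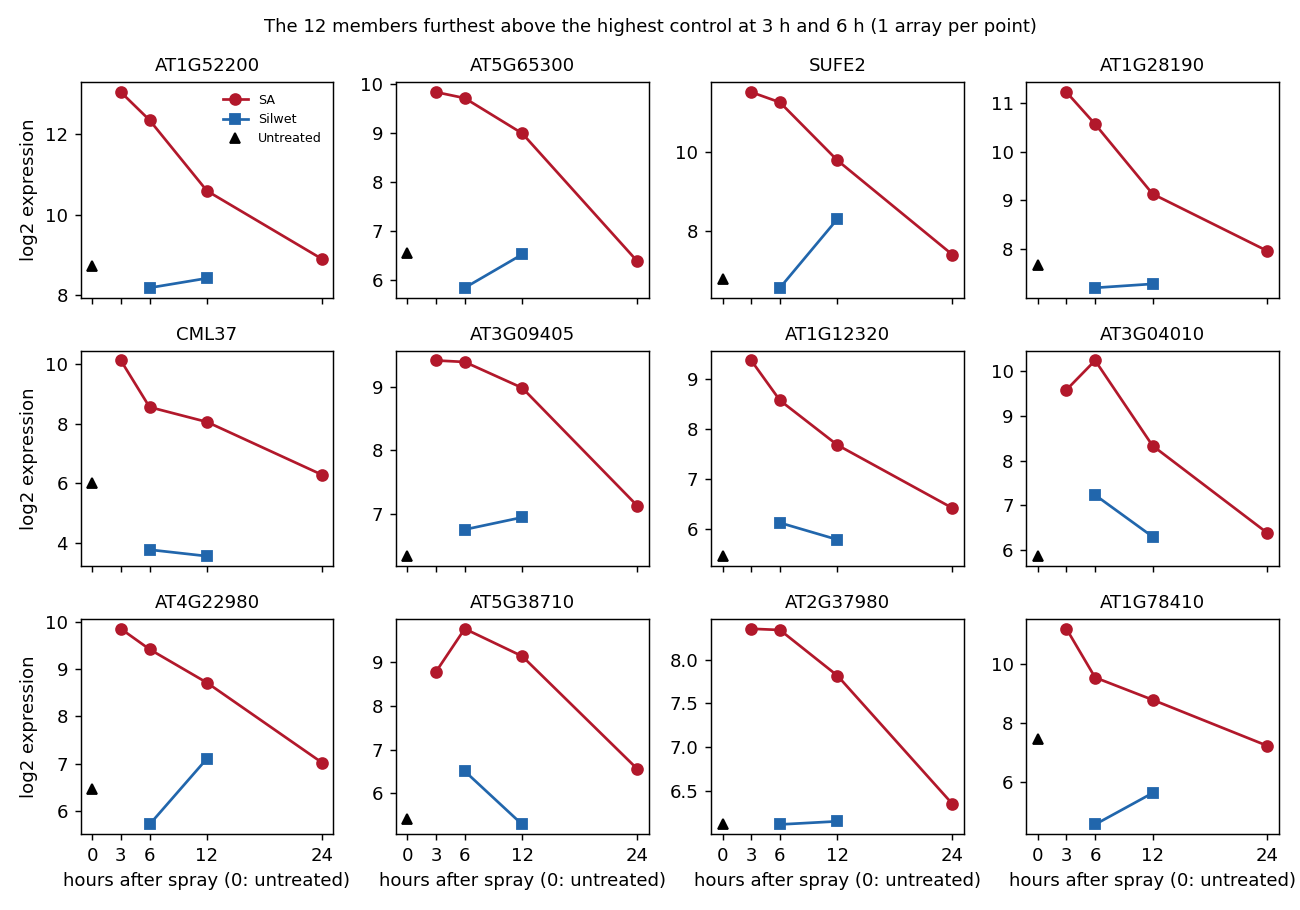
Log2 expression (vertical axes, each with its own range) against hours after the spray for the 12 members with the largest smaller excess at 3 h and 6 h, with 1 array per point and untreated leaves drawn at 0 h. SA values at 3, 6 and 12 h lie above the Silwet and untreated values in every panel, at 3 h and 6 h by the choice of members. CML37 and AT1G78410 have both Silwet arrays well under the untreated one.

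How far the members had returned by 12 h was not set by the choice, although the controls they are measured against were. At 12 h 37 members were still 1 log2 unit or more above the highest control, which is 36.3% of them, where 3.34% of all probe sets naming 1 gene were. A further 42 lay from 0.3 to under 1 above it, and 23 lay under 0.3 above it, 10 of them below the highest control. The array maker's 25S ribosomal RNA probe set stood apart in both 12 h arrays, at 12.44 in SA and 13.43 in Silwet, against 8.20 to 10.30 in the other 5 arrays, and its part in the 12 h values was not tested. Compared with the 12 h Silwet array, SA at 12 h was higher in 101 of the 102, where it was in 5591 of all 13513 probe sets naming 1 gene. The median difference was 1.18 over members and −0.03 over all probe sets. The exception was AT5G16980, at −0.05. The difference was 1 or more in 64 members (62.7%), where it was in 5.98% of all probe sets. The median member kept 46.6% of its mean log2 excess of 3 h and 6 h at 12 h. When the rule was applied against the mean of the controls, 147 probe sets met it, 58 of them among these 102, and their median difference from Silwet at 12 h was 0.66.

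**Figure D3:**
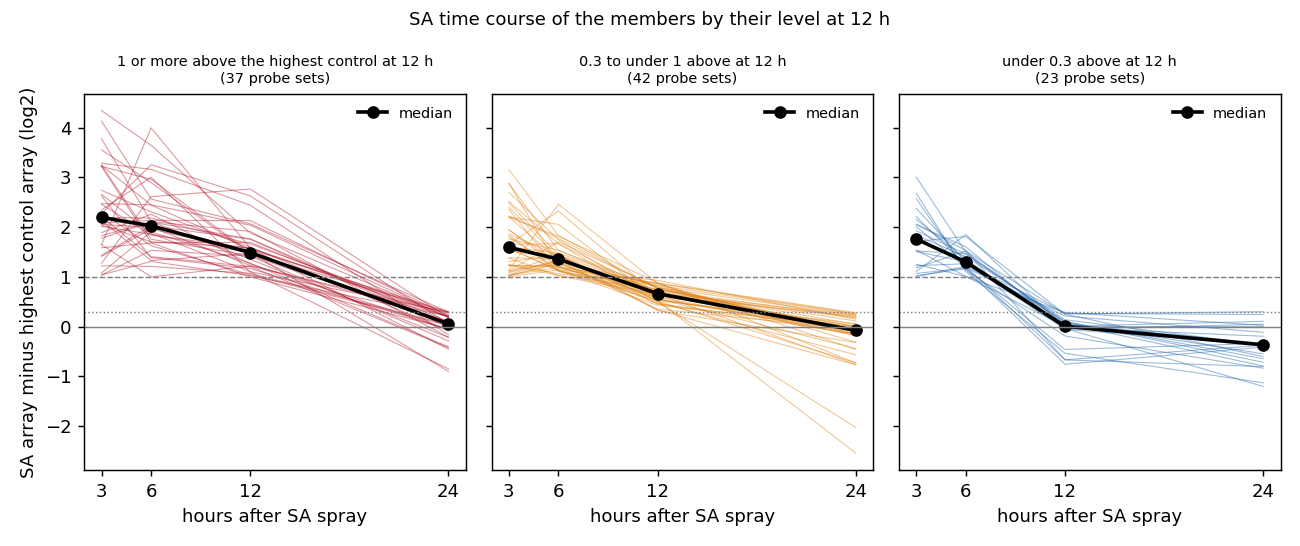
SA minus the highest control array (log2, vertical axis) against hours after the SA spray for each member, split by its level at 12 h into 37, 42 and 23 probe sets, with the median of each group in black. The dashed and dotted lines mark the thresholds of 1 and 0.3. The group still raised at 12 h also has the higher medians at 3 h (2.20) and 6 h (2.03), taken from the same highest control.

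The members still raised at 12 h were also further up early, with a median of 2.20 at 3 h and one of 2.03 at 6 h. The 42 in between had medians of 1.59 and 1.36, and the 23 that were back had 1.76 and 1.30. The values at all times were taken from the same highest control, which links them. That control had a median of 6.94 in the raised members, 7.93 in those in between and 6.80 in those that were back. The highest at 12 h was AT3G55700, with 6.33, 7.67, 7.82 and 5.23 in SA, 4.94 and 5.00 in Silwet and 5.05 in untreated leaves. It was the only member to peak at 12 h. BGLU31, a family 1 beta-glucosidase, stayed level for the same time, with 6.45, 6.50, 6.50 and 4.59 in SA, 4.36 and 3.98 in Silwet and 4.11 in untreated leaves. Next to AT3G55700, the members furthest above the highest control at 12 h were AT5G38710 (2.63), AT5G65300 (2.44), BGLU31 (2.13), CML37 (2.07) and AT3G09405 (2.04).

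At the other end, AT1G78210 was 0.76 below its highest control at 12 h, with 10.91, 11.05, 9.13 and 9.48 in SA, 9.37 and 7.99 in Silwet and 9.89 in untreated leaves. CHX16, a cation/H+ exchanger, read 9.02, 8.50, 6.29 and 6.16 in SA, 6.96 and 6.19 in Silwet and 5.88 in untreated leaves, so 12 h and 24 h lay between the controls. The next lowest at 12 h were AT5G02430 (−0.67), AT1G76600 (−0.54), AT4G31980 (−0.46) and, by 1 of its 2 probe sets, AT1G18390 (−0.19). In AT1G78210, AT4G31980 and AT5G02430 the SA array at 24 h was higher than that at 12 h, as it was in 6 members in all. Over all 13513 probe sets naming 1 gene it was higher in 7116, and for members the choice bounds SA at 24 h from above.

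The order of 3 h and 6 h was likewise not fixed by the choice. SA at 3 h was higher than SA at 6 h in 68 members and lower in 34, and the 2 arrays were within 0.3 of each other in 37. Over all 13513 probe sets naming 1 gene SA at 3 h was the lower in 6049. The median difference, 6 h minus 3 h, was −0.21, where it was −0.02 over all probe sets. SA at 6 h was 1 or more below SA at 3 h in 15 members (14.7%), where 3.12% of all probe sets were, and 1 or more above it in 3 (2.94%), where 2.07% were. From 6 h to 12 h, 35 members (34.3%) were lower by 1 or more, where 2.86% of all probe sets were; all members were selected on a high 6 h value. Only 4 members were not lower at 12 h than at 6 h. Over all 13513 probe sets naming 1 gene SA at 12 h was the higher in 6989. Of the members, 62 stepped down at every sampling time from 3 h to 24 h. The choice favours this order, since it asked for high values at 3 h and 6 h and a low one at 24 h. The same count over all probe sets was not made.

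The member with the steepest step down between 3 h and 6 h was AT1G19020, with 13.18, 11.50, 10.89 and 10.12 in SA, 7.21 and 7.96 in Silwet and 10.29 in untreated leaves. The next differences of 6 h minus 3 h were −1.66 for AT1G78410, −1.58 for AT1G76600, −1.57 for CML37 and −1.53 for AT5G10695. The steepest step up was that of AT5G55420, a transcribed pseudogene and the only member locus that is not protein coding, with 8.01, 10.36, 7.94 and 5.91 in SA, 6.36 and 5.63 in Silwet and 5.42 in untreated leaves. It was followed by AT3G55700 (1.34), AT5G01210 (1.30), AT5G38710 (0.98) and ChiC (0.83).

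**Figure D4:**
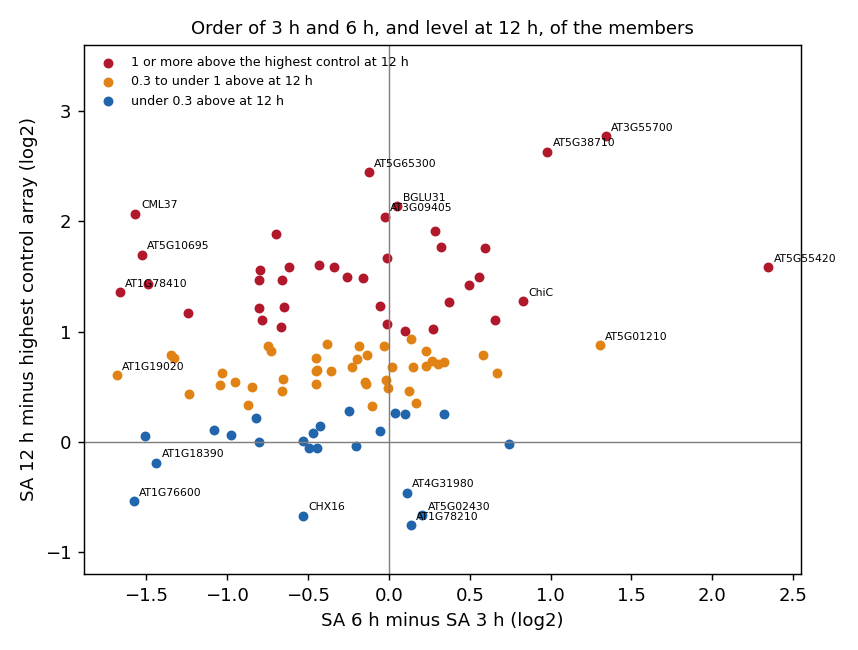
SA at 6 h minus SA at 3 h (log2, horizontal axis) against SA at 12 h minus the highest control (log2, vertical axis) for the 102 members, 1 point per probe set, coloured by their level at 12 h. Of the points, 68 of 102 lie left of 0 and 34 right of it, where 6049 of all 13513 probe sets naming 1 gene would lie right of 0. Genes much lower at 6 h than at 3 h such as CML37 and AT1G76600 lie both high (2.07) and low (−0.54) at 12 h.

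At 24 h the choice set only an upper bound. SA at 24 h was above the highest control, by less than 0.3, in 42 members, between the lowest and the highest control in 47, and below all 3 controls in 13 (12.7%), where 24.4% of all probe sets were. This count depended on the controls used, since with the rule applied without the untreated array there were 25 such members and without Silwet at 12 h there were 23. The lowest was AT3G16530, 1.98 under its lowest control, with 13.29, 13.14, 12.29 and 9.22 in SA, 11.76 and 11.24 in Silwet and 11.20 in untreated leaves. It is among the brightest members, and its 4 SA arrays lie on both sides of the controls. The next lowest were AT5G57060 (−0.38), AT2G46620 (−0.33), AT2G27310 (−0.29), 1 probe set of AT3G53670 (−0.18) and AT3G23550 (−0.16), far closer to the controls.

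Set against the untreated leaves of the same clock time, SA at 24 h was within 0.3 in 57 of the 102 members, 1 or more higher in 2 and 1 or more lower in 3. The 2 higher ones were AT5G38710 and AT5G56610, and the 3 lower ones were AT3G16530, AT4G20830 and AT1G76600. The quartiles of SA at 24 h minus untreated were −0.11 and 0.41 over members. Over all probe sets naming 1 gene they were −0.17 and 0.20, so being near untreated was not particular to the members. Back to the highest control did not mean back to each control. SA at 24 h was 1 or more above the lowest control in 25 members (24.5%), where 8.55% of all probe sets were, and 1 or more above both Silwet arrays in 11 (10.8%), where 3.26% were. The choice used these arrays and bounded SA at 24 h by the highest control only, so these shares depend on it. Of the 11, 10 had both Silwet arrays 1 or more under untreated and so passed the 24 h bound through the untreated array.

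Part of the members had Silwet arrays far below the untreated one. Both Silwet arrays were 1 or more under untreated in 13 members (12.7%), where 3.17% of all probe sets were, and both were 1 or more above it in 1 member (0.980%), where 1.67% were. Silwet at 12 h was 1 or more away from Silwet at 6 h in 9 members (8.82%), where 6.85% of all probe sets were. The choice of members used all of these arrays. A high untreated array makes the early threshold harder and the 24 h bound easier to pass, so these shares are not independent of the choice. The 13 probe sets read CML37, SGP2, AT1G78410, AT2G28400, AT3G28580, AT4G20830, AT1G72900, AT1G19020, AT1G32120, AT1G76600, AT3G19010 and, with both of its probe sets, AT1G18390. Spray and time of day cannot be told apart in the step from untreated to Silwet.

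In most of these 13 the SA array at 24 h was closer to the untreated array than to the Silwet arrays, with AT4G20830 and the brighter probe set of AT1G18390 as exceptions. It was 1 or more above both Silwet arrays in 10 of them, within 0.3 of untreated in 7, and 0.3 or more below untreated in 6. AT2G28400 read 11.05, 10.99, 9.63 and 8.88 in SA, 6.46 and 6.84 in Silwet and 9.53 in untreated leaves. AT1G72900 read 12.54, 11.56, 10.39 and 9.53 in SA, 7.74 and 7.76 in Silwet and 10.33 in untreated leaves. In both genes every SA array was above both Silwet arrays, and the untreated array lay above SA at 24 h. SGP2 read 9.78, 8.98, 7.62 and 7.62 in SA, 6.51 and 6.56 in Silwet and 7.62 in untreated leaves, so that SA at 12 h and 24 h equalled untreated. AT3G19010 read 12.41, 11.88, 10.88 and 10.98 in SA, 9.74 and 9.24 in Silwet and 10.87 in untreated leaves.

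Since untreated is the highest control of these genes, their differences from Silwet are larger by construction than those from the highest control. At 12 h their median was 0.10 above the highest control and 2.51 above Silwet at 12 h. All 13 were higher in SA at 3 h than at 6 h, as were 68 of the 102 members. Over all 13513 probe sets naming 1 gene SA at 6 h was the higher in 6049. In the 13, 6 h minus 3 h ran from −1.68 to −0.05, so AT2G28400 was nearly level. At 12 h 3 of the 13, CML37, AT1G78410 and AT3G28580, were still 1 or more above the highest control. AT3G23550 was the member with both Silwet arrays 1 or more above untreated, with 11.58, 10.74, 9.57 and 7.04 in SA, 9.07 and 8.90 in Silwet and 7.21 in untreated leaves, and its SA array at 24 h was its lowest.

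**Figure D5:**
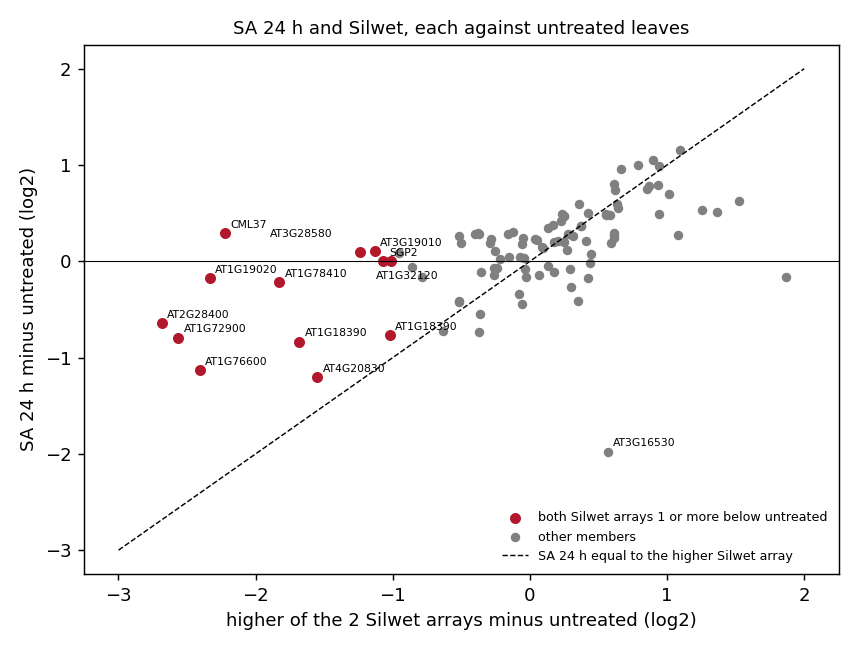
SA at 24 h minus untreated (log2, vertical axis) against the higher of the 2 Silwet arrays minus untreated (log2, horizontal axis), 1 point per member probe set. The 13 red points have both Silwet arrays 1 or more below untreated and lie above the dashed line of equality, 7 of them within 0.3 of untreated, while AT3G16530 lies alone at −1.98.

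Only 13 members carry a gene symbol in the tables used, and the other 89 are known here by locus. The relatives given below were found by the symbol stems of these members. Each such group therefore holds at least 1 gene that met the early condition, which 3.00% of all probe sets naming 1 gene met. BGLU31, ChiC and ENGase85B act on sugars and glycans. ChiC is a class V chitinase, and ENGase85B is an endo-beta-N-acetylglucosaminidase that releases N-glycans from glycoproteins. ChiC peaked at 6 h, with 6.30, 7.13, 6.50 and 4.82 in SA, 5.23 and 4.60 in Silwet and 4.63 in untreated leaves. ENGase85B moved less, with 7.33, 7.64, 6.99 and 6.10 in SA, 6.22 and 6.29 in Silwet and 6.16 in untreated leaves. Its only measured relative, ENGase85A, met the early condition as well but stayed up, with 9.38, 9.67, 9.22 and 9.21 in SA, 7.36 and 7.38 in Silwet and 6.89 in untreated leaves. Of 20 measured BGLU genes only BGLU31 and BGLU45 met the early condition, and BGLU45 was 1.71 above its highest control at 24 h.

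ATG8H belongs to the ubiquitin-like proteins that coat autophagosomes, and read 9.27, 9.12, 8.74 and 7.34 in SA, 6.64 and 7.26 in Silwet and 6.83 in untreated leaves. It was the only one of 7 measured ATG8 genes to meet the early condition, but ATG8B missed it only at 3 h, with a smaller excess of 0.76. ATG8B read 8.76, 10.05, 10.27 and 8.51 in SA. At 12 h it was 2.27 above its highest control, where ATG8H was 1.48 above, and at 24 h it was 0.51 above. The rest of the ATG8 genes had negative smaller excesses. PUB24, a U-box ubiquitin ligase of the group that restrains pattern-triggered immunity, read 11.05, 9.81, 9.60 and 8.37 in SA, 7.27 and 7.57 in Silwet and 8.43 in untreated leaves. Of 9 measured PUB genes only PUB24 met the early condition. Its close relative PUB23 read 9.37, 7.73, 7.37 and 7.10 in SA, 5.52 and 6.17 in Silwet and 7.55 in untreated leaves, so it had the same order of arrays in SA but was only 0.18 above untreated at 6 h.

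Of 7 measured CML genes only CML37 met the early condition, but CML43 missed it narrowly, with a smaller excess of 0.9993, and was 0.87 above its highest control at 24 h. CML38 read 10.60, 8.58, 7.84 and 7.54 in SA, 5.44 and 5.33 in Silwet and 8.59 in untreated leaves, so that it was above untreated at 3 h and level with it at 6 h. CML37 and CML38 both had their 2 lowest arrays in Silwet. CHX16 was the only one of 6 measured CHX genes to meet the early condition. The small GTPase gene SGP2 had a relative that stayed up: SGP1 read 10.49, 10.85, 9.58 and 9.15 in SA, 7.42 and 7.43 in Silwet and 7.74 in untreated leaves.

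Vesicle traffic was represented by SEC1B, a Sec1/Munc18 protein of membrane fusion, and DL1B, a dynamin-like GTPase of membrane fission. SEC1B read 8.44, 7.80, 8.02 and 7.08 in SA, 6.64 and 6.50 in Silwet and 6.80 in untreated leaves. DL1B read 7.04, 6.79, 6.07 and 5.81 in SA, 5.54 and 5.78 in Silwet and 5.61 in untreated leaves. SEC1B was thus still raised at 12 h and DL1B was within 0.3 of its highest control. GSTU25, a tau class glutathione transferase of detoxification, was a dim member, with 5.50, 5.30, 5.03 and 4.32 in SA, 4.02 and 4.27 in Silwet and 4.18 in untreated leaves. It was the only one of 11 measured GSTU genes to meet the early condition, where 3.00% of all probe sets naming 1 gene did.

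CXE20, a carboxylesterase, read 8.84, 8.19, 7.61 and 6.88 in SA, 6.57 and 7.04 in Silwet and 6.77 in untreated leaves. AT2G46140, listed as late embryogenesis abundant 27, peaked at 6 h, with 6.87, 7.36, 7.25 and 5.54 in SA, 5.83 and 5.39 in Silwet and 5.66 in untreated leaves. Each of these genes had SA at 24 h among its controls.

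Families could be set only for the 364 probe sets whose names hold a family word, and 34 of these met the early condition, 11 of them members. Glycosyl transferases and hydrolases held 3 members among 100 measured, with 17 that met the early condition, where over all probe sets 3.00% met the early condition and 0.784% the whole rule. The 4 genes left out by symbol belong to that family too, so its 3 members depend on that exclusion. Vesicle and secretion genes held 2 of 18, ubiquitin and related genes 1 of 41, sulfur and cysteine genes 1 of 20, other transporters 1 of 20, glutathione transferases 1 of 13, calcium and calmodulin genes 1 of 12 and autophagy genes 1 of 9. Oxidoreductases held none among 69 (4 met the early condition), transcription factors none among 32 (none did), and genes named as kinases or receptors none among 17. In that last group the 3 that met the early condition were the receptor kinase gene EFR and the glutamate receptor-like genes ATGLR1.2 and GLR2.7. Since 89 members are known by locus only, a count of none does not show that no member belongs to the family. The words for transcription factors did not include WRKY. Member genes had a median length of 2105 bases, where the median over all was 2117.

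For 2 loci, 2 member probe sets read the same gene. Those of AT3G53670 differed in brightness. The dimmer one read 7.96, 8.06, 6.50 and 5.65 in SA, 6.11 and 6.25 in Silwet and 5.83 in untreated leaves. The brighter one read 10.67, 10.80, 9.82 and 9.22 in SA, 9.28 and 9.36 in Silwet and 8.43 in untreated leaves. Both had 3 h and 6 h nearly level, and SA at 24 h was below all controls only for the dimmer probe set. For AT1G18390 the dimmer probe set read 9.38, 7.94, 6.62 and 5.97 in SA, 5.12 and 5.02 in Silwet and 6.80 in untreated leaves. Its brighter probe set read 10.67, 9.80, 8.80 and 7.70 in SA, 7.42 and 7.44 in Silwet and 8.46 in untreated leaves. Both were highest at 3 h and had Silwet far under untreated, but at 12 h the dimmer one was 0.19 below untreated and the brighter one 0.33 above it. AT2G41730, with 11.05, 9.56, 9.23 and 7.88 in SA, 6.84 and 6.72 in Silwet and 7.80 in untreated leaves, is read by a probe set whose probes may match other transcripts too, by the array maker's naming.

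Few member loci were neighbours. Among members within 5 genes of each other, only AT5G16960 and AT5G16980 were found, with AER, an alkenal reductase gene, between them. AT5G16960 read 8.54, 7.51, 6.76 and 6.34 in SA, 6.13 and 6.13 in Silwet and 6.00 in untreated leaves. AT5G16980 read 6.54, 6.04, 4.72 and 4.41 in SA, 4.78 and 4.78 in Silwet and 4.33 in untreated leaves. AER read 10.34, 9.75, 8.62 and 8.62 in SA, 8.56 and 8.76 in Silwet and 7.92 in untreated leaves. It missed the early threshold by less than 0.01, with a smaller excess of 0.9920, so all 3 neighbouring genes had their highest array in SA at 3 h and the next in SA at 6 h.

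Genes lay close on both sides of each threshold. Among probe sets that passed the 24 h bound, those just inside the early threshold were SEC1B (1.0017), AT5G56610 (1.0038) and AT5G02430 (1.0042), and those just outside it were AT3G09000 (0.9921), AER (0.9920) and AT2G33710 (0.9894). Among those that passed the early threshold, AT5G53110 (0.2998), AT1G12320 (0.2959) and AT1G28190 (0.2946) were just inside the 24 h bound, and AT5G47420 (0.3019), RHF1A (0.3026) and AT2G05320 (0.3045) were outside. Without regard to 24 h and with the same symbols left out, 397 probe sets met the early condition, of which 169 lay from 0.3 to under 1 above the highest control at 24 h and 126 lay 1 or more above it.

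The 126 that stayed up at 24 h had larger values at every time, with medians over the highest control of 2.56 at 3 h, 2.50 at 6 h, 1.99 at 12 h and 1.54 at 24 h. At 12 h 106 of them (84.1%) were 1 or more above the highest control and 119 (94.4%) were 1 or more above Silwet. They kept 83.1% of their early excess at 12 h at the median, against 46.6% for the members. Their median of 6 h minus 3 h was 0.06, with 13 (10.3%) lower by 1 or more at 6 h and 9 (7.14%) higher by as much. At 12 h 34 of them (27.0%) were 1 or more below 6 h, beside 35 (34.3%) of the members. Both Silwet arrays were 1 or more under untreated in 4 of the 126 (3.17%). Both sets were selected on these arrays and share their controls, so their values are set side by side and were not tested.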

How the data were processed

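Total RNA of 7 leaf samples was read on Affymetrix ATH1 arrays, 1 per group. The authors deposited log2 expression values. The submitters' processing notes name RMA and affy; versions and probe annotation are not given in the sources used here. RMA equalises the arrays' distributions, so a shift of most transcripts would be hidden and dim differences are compressed. Arrays have no read depth, and their number limits the precision. Genes were named from the platform annotation of 22810 probe sets, updated through RefSeq TAIR10.1 by gene number. Differences between arrays and counts past 1 log2 unit were computed with Python 3.11.15, pandas 2.3.3 and numpy 2.4.6. The selection was run on simulated data with planted shifts far larger than their noise, which checks the code only. No test was run. Members and gene lists were chosen with earlier results of these data known. Named genes are those furthest up early (12), highest and lowest at 12 h (6 each), with the largest and smallest step from 3 h to 6 h (5 each), lowest at 24 h (6), with 2 probe sets, in the families set by name, or nearest the thresholds (3 on each side). Members with a symbol, those with low Silwet arrays, relatives and neighbours were named after their values were seen. Alternatives changed the thresholds, the controls, the scaling, a filter on dim probe sets and the symbols left out.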

Additional observations from a re-analysis of the deposited data

How the results depend on the processing

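The median of 6 h minus 3 h stayed negative under each of 12 alternatives. The number of members, 102, became 168 with an early threshold of 0.8, 39 with 1.5, 157 with a 24 h margin of 0.5 and 67 among bright probe sets. The count still raised at 12 h, 37, became 22 with a margin of 0.1 and 64 with 0.5. The count below every control at 24 h, 13, became 21 with an early threshold of 0.8, 5 with 1.5, 28 with the mean of the controls, 7 among bright probe sets and 19 to 25 when 1 control array was left out (25 without untreated, 23 without Silwet at 12 h). The median of SA minus Silwet at 12 h, 1.18, became 1.58 with an early threshold of 1.5, 0.66 with the mean of the controls, and 0.88 (without untreated) to 1.06 when 1 control array was left out. Members differ between these settings, and 77, 91 and 93 of the 102 remained without untreated, Silwet at 6 h and Silwet at 12 h. Leaving out a control array makes the condition easier to pass at 3 h and 6 h and harder at 24 h. The median of SA minus Silwet at 12 h stayed positive under the same alternatives. With 1 array per group, these settings say nothing about variation between plants. No paired analysis was possible because every group has 1 array and so shares a single replicate number with any other; SA and Silwet were set against each other at 6 h and at 12 h as single differences. The search of promoters for motifs was not run, since promoter sequences were not used here.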

Other observations

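The selection also reached probe sets that carry no single gene name. Of 8730 probe sets that name no gene in the annotation used, 97 (1.11%) met it, where 0.784% of those naming 1 gene did. At 12 h 34 of the 97 were 1 log2 unit or more above the highest control, beside 38 of the 106 that name 1 gene. Of 503 that name several genes, 7 (1.39%) met it, and of the 64 control probe sets of the array maker none did. These transcripts are unnamed here.

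The 4 genes left out by symbol all encode UDP-glycosyltransferases, enzymes that join sugars to small molecules. UGT73B4 read 8.83, 8.60, 7.57 and 4.90 in SA at 3, 6, 12 and 24 h, 4.50 and 4.61 in the Silwet arrays at 6 h and 12 h, and 4.38 in untreated leaves. Its smaller early excess, 3.99, was above that of every member. UGT73C1 read 8.50, 7.58, 5.11 and 4.65 in SA, 4.48 and 4.44 in Silwet and 4.75 in untreated leaves. UGT71B6 read 8.93, 7.81, 6.86 and 5.86 in SA, 5.08 and 5.56 in Silwet and 6.05 in untreated leaves. UGT71C1 peaked at 6 h, with 5.63, 6.43, 4.76 and 4.57 in SA, 4.34 and 4.08 in Silwet and 4.15 in untreated leaves. Only UGT73B4 was still 1 or more above its highest control at 12 h.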
